A study of Mus musculus with 8 samples.

Results

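The genes described here are 10 genes of MHC class I antigen presentation: the light chain gene B2m, the classical heavy chain genes H2-K1 and H2-D1, the non-classical chain gene H2-T3, the peptide transporter genes Tap1 and Tap2, the loading factor Tapbp, the immunoproteasome genes Psmb8 and Psmb9, and the transcriptional regulator Nlrc5. They were found in the count table by symbol, and all 10 matched 1 gene each of the 54141 listed. All 10 passed the filter on low counts that left 16132 genes for testing. The genes were selected on their measured CPM in these same libraries, in Degs2_KO against WT and library by library, and H2-T3 on its level against the classical genes in the libraries with little Hoxd13. Those levels are therefore given as a description with no test.

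The libraries came from epithelial cells shaken off the mouse distal colon in EDTA and strained, all on a c57bl6/j background. The 4 libraries of the Degs2_KO group carry a homozygous mutation of Degs2, which encodes a sphingolipid desaturase and hydroxylase, and the 4 libraries of the WT group are wild type. The labels name no allele, age or sex and do not tie each library to a mouse of its own, and the spread quoted below may be partly technical.

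Class I molecules carry short peptides to the cell surface, where CD8 T cells read them. The proteasome cuts cytosolic proteins, the TAP transporter moves the fragments into the endoplasmic reticulum, tapasin and its partners load them, and a heavy chain with its beta-2-microglobulin light chain presents them. Interferons raise most of these genes, and NLRC5 is a transactivator of several of them. H2-T3 stands somewhat apart: it encodes the thymus leukaemia antigen, which does not present peptides in the classical way, is found on mouse intestinal epithelium, and binds the CD8 alpha homodimer that many intraepithelial lymphocytes carry.

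Of the 10 genes, 8 lie on chromosome 17 between positions 33915899 and 36190287 of GRCm38, in the mouse MHC. B2m lies on chromosome 2 and Nlrc5 on chromosome 8. RefSeq promoter windows, running from 250 bases before to 50 bases after a start, were available for 8 of the genes. H2-K1 had 2 windows, of which the first listed was used, and the others had 1 each. The windows of H2-D1, Tapbp, Psmb8 and Psmb9 lie within the bounds of their genes, so matches depend on the start used. The first 250 bases are shown for B2m and the classical chains, whose levels over the libraries were close to each other's in pattern, for H2-T3, whose pattern was not, and for Tap1. The build is GRCm38.p6, and the windows are chr2:122147437-122147686 on the plus strand for B2m, chr17:34000348-34000597 on the minus strand for H2-K1, chr17:35262844-35263093 on the plus strand for H2-D1, chr17:36190152-36190401 on the minus strand for H2-T3 and chr17:34187306-34187555 on the plus strand for Tap1. Capitals mark matches, on either strand, to the letters of an interferon response element (GAAA and GAAA, 2 bases apart), a gamma-activated site (TTC and GAA, 3 bases apart), a kappaB site (GGG and CC, 5 bases apart), a CRE core (TGACG) or a CCAAT box (CCAAT).
B2m: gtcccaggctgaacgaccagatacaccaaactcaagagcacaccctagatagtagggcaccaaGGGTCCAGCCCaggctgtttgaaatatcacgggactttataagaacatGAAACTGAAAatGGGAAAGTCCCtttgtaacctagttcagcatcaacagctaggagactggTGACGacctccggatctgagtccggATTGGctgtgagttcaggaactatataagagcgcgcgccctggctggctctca
H2-K1: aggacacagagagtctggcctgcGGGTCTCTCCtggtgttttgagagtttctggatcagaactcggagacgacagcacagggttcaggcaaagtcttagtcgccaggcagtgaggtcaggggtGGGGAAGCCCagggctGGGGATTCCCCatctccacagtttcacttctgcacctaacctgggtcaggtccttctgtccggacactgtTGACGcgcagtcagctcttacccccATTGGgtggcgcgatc
H2-D1: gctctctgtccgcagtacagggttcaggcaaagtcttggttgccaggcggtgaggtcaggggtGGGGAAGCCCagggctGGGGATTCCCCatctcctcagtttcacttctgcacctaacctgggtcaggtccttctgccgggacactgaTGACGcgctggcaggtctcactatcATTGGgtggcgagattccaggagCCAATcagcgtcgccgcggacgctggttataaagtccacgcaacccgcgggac
H2-T3: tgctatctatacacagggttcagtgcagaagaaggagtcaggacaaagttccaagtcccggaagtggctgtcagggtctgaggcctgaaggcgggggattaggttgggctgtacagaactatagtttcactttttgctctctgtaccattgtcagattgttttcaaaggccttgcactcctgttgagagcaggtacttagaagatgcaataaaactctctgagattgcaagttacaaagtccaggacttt
Tap1: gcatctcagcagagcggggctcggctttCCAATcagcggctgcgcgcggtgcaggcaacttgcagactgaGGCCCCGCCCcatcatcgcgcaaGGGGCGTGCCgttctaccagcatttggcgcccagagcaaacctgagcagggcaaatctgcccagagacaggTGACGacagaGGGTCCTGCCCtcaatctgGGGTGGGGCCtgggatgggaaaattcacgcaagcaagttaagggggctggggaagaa

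The B2m window held an interferon response element, whose first base lay 139 bases before the start. Such a match was found in 3.44% of all 32851 windows. kappaB matches, which 50.8% of windows held and which overlap each other on opposite strands, were found in B2m, H2-K1, H2-D1, Tap1 and Psmb9. CRE cores were found in the same 5 windows, against 20.8% of all windows. The gamma-activated site, in 8.3% of windows, was found in the Psmb8 window alone, and CCAAT boxes, in 37.4% of windows, in those of B2m, H2-K1, H2-D1, Tap1, Psmb9 and Tapbp. The H2-T3 window held none of the 5 motifs in the exact letters searched. Near matches were not looked for, so a window without a match may still hold a variant of a motif. The printed H2-K1, H2-D1 and H2-T3 windows all hold the letters agtttcactt, which none of the searched motifs matches.

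In B2m, H2-K1 and H2-D1 a CRE core was followed 25 bases on by a CCAAT box on the other strand, first base to first base. This arrangement was looked for after the matches had been seen. In the same orientation it occurred in 19 of the 32851 windows, or 0.0578%, and these belonged to 16 genes. Of 15 other class I chains with a window, 1 held it, H2-M3, which encodes a chain that presents formylated peptides. The H2-K1 and H2-D1 windows were 88.3% identical over their alignment. H2-T3 was 63.2% identical to H2-D1 and 58.4% to H2-K1, inside the range of 50.6% to 66.3% over 20 pairs of the member windows that held neither H2-T3 nor both classical chains. The Tap1 and Psmb9 windows are the same stretch read in opposite directions over 275 bases. A match describes letters only and shows no binding.

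Some properties of the libraries bear on every value that follows. They held 32.8 to 49.8 M fragments. Degs2 averaged 58.2 ± 9.08 CPM (counts scaled to a common library size, with TMM normalization) in Degs2_KO libraries and 122 ± 20.1 CPM in WT libraries (SD, n = 4 each), 47.8% of the WT mean, and the groups did not overlap. By an exact permutation test, 2-sided over 70 assignments of the libraries, p was 0.0286, the smallest value possible with 4 against 4. Degs2 had an adjusted p of 0.796 in edgeR's quasi-likelihood test and of 6.96e-07 in DESeq2. The transcript was lower in Degs2_KO and still present, and the labels do not say which part of it the mutation touches. Hoxd13, a homeobox gene of the most distal gut, stood at 0.312 CPM in Degs2_KO replicate 3 and 0.699 CPM in WT replicate 1, against 38.8 to 85.3 CPM in the other 6 libraries. Those libraries also stood apart on the first principal component, which held 50.3% of the variance, and the H2-T3 results that rest on them are also given over the other 6 libraries. Epithelial markers summed to between 14410 and 16180 CPM in Degs2_KO libraries and between 13640 and 17490 CPM in WT libraries, led by Krt8, Krt19 and Epcam, with all 10 detected everywhere. These are bulk libraries, so fewer cells of a type and less RNA per cell cannot be told apart.

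B2m, the light chain shared by all class I molecules, measured 675, 466, 628 and 416 CPM in Degs2_KO replicates 1 to 4, against 553, 388, 306.5 and 593 CPM in WT replicates 1 to 4. The groups overlapped, with the lowest library in WT and the highest in Degs2_KO. The means were 546 ± 124.5 CPM in Degs2_KO and 460 ± 135 CPM in WT (SD, n = 4 each). The log2 fold change of Degs2_KO over WT was 0.25 ± 0.24 (SE), with a 95% interval of -0.29 to 0.79.

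H2-K1, a classical heavy chain of the b haplotype, measured 893, 768, 938 and 621 CPM in Degs2_KO libraries and 774, 612, 598 and 823 CPM in WT libraries. H2-D1, the other classical chain, measured 840.5, 730.1, 823 and 684 CPM in Degs2_KO libraries and 734, 649, 529 and 837 CPM in WT libraries. Replicate 3 was the lowest WT library for both chains, as it was for B2m. H2-K1 averaged 805 ± 142 CPM in Degs2_KO and 702 ± 114 CPM in WT, a log2 fold change of 0.20 ± 0.16 (interval -0.17 to 0.57). H2-D1 averaged 769 ± 74.6 CPM in Degs2_KO and 687 ± 130 CPM in WT, a log2 fold change of 0.16 ± 0.15 (interval -0.17 to 0.50). Both intervals include 0, and their upper ends lie at 1.48-fold for H2-K1 and 1.41-fold for H2-D1.

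**Figure D1:**
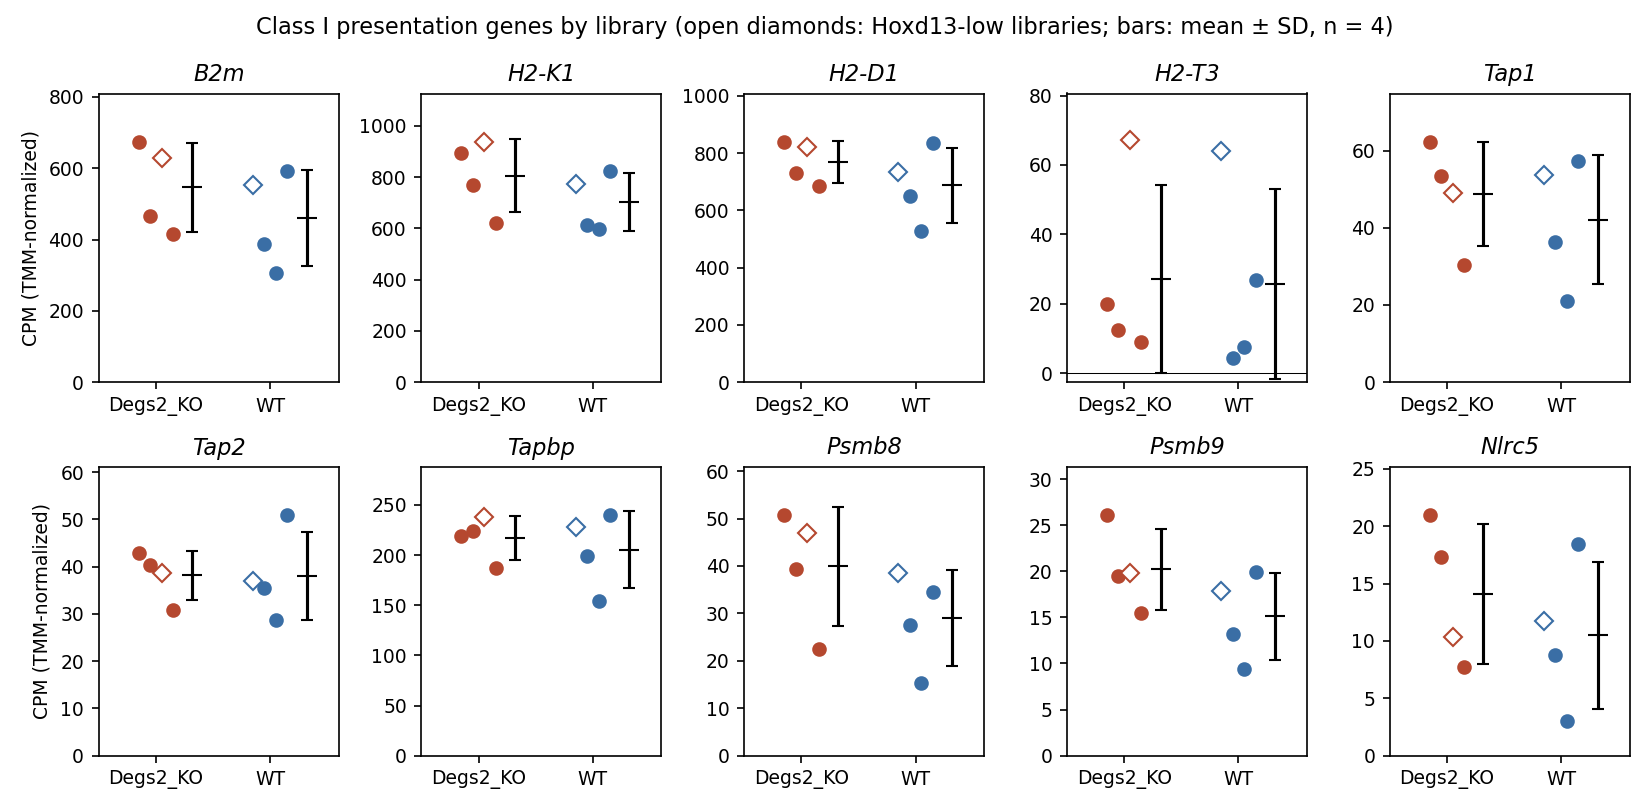
TMM-normalized CPM of the 10 genes in each library, Degs2_KO left and WT right in each panel, each panel with its own axis; points are libraries, open diamonds the Hoxd13-low libraries, bars the mean ± SD of 4. The groups overlap for every gene, and for H2-T3 the highest point of each group is its Hoxd13-low library, at 67.2 CPM in Degs2_KO and 64.0 CPM in WT.

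H2-T3 varied most of the 10 over all 8 libraries. It measured 20.0, 12.4, 67.2 and 8.97 CPM in Degs2_KO replicates 1 to 4, against 64.0, 4.52, 7.47 and 26.8 CPM in WT replicates 1 to 4. The highest library in each group was the one with little Hoxd13, and the highest of all exceeded the lowest 14.8-fold, or 5.91-fold among the other 6 libraries. The group means were nearly equal, at 27.1 ± 27.1 CPM in Degs2_KO and 25.7 ± 27.4 CPM in WT (SD, n = 4 each). The log2 fold change was 0.08 ± 0.88, with an interval of -1.92 to 2.08 whose upper end lies at 4.22-fold. The sign depended on single libraries: the value was -0.90 without Degs2_KO replicate 3, -0.27 without WT replicate 2, -0.23 without WT replicate 3 and 1.09 without WT replicate 1. Without both Hoxd13-low libraries it was 0.09, with means of 13.8 ± 5.67 CPM in Degs2_KO and 12.9 ± 12.1 CPM in WT (SD, n = 3 each).

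The peptide transporter and its tapasin bridge varied less. Tap1 measured 62.3, 53.5, 49.0 and 30.3 CPM in Degs2_KO libraries and 53.7, 36.2, 21.2 and 57.3 CPM in WT libraries. Tap2, the other subunit, measured 42.9, 40.4, 38.6 and 30.9 CPM in Degs2_KO libraries and 37.1, 35.5, 28.8 and 50.9 CPM in WT libraries. For both subunits WT replicate 3 was lowest, and the groups overlapped over most of their range. Tapbp, which encodes tapasin, ranged from 187 to 238 CPM in Degs2_KO and from 154 to 240 CPM in WT. The log2 fold changes were 0.21 ± 0.32 for Tap1, 0.0049 ± 0.17 for Tap2 and 0.08 ± 0.14 for Tapbp. Without WT replicate 3 the values became -0.0072 for Tap1, -0.11 for Tap2 and -0.035 for Tapbp. Tap2 was also below 0 without Degs2_KO replicate 1 (-0.045), Degs2_KO replicate 2 (-0.022) or WT replicate 2 (-0.026). Tapbp overlaps Zbtb22 on its strand, which averaged 41.8 CPM over the libraries, and no source used here says whether reads were counted by strand.

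Psmb8 and Psmb9 encode catalytic subunits that replace Psmb5 and Psmb6 in the immunoproteasome. Psmb8 measured 50.7, 39.4, 47.0 and 22.5 CPM in Degs2_KO libraries and 38.6, 27.6, 15.4 and 34.5 CPM in WT libraries. Psmb9 measured 26.1, 19.5, 19.8 and 15.5 CPM in Degs2_KO libraries and 17.9, 13.2, 9.43 and 20.0 CPM in WT libraries. Degs2_KO replicate 1 was the highest library for both genes, and WT replicate 3 the lowest. Psmb8 averaged 39.9 ± 12.5 CPM in Degs2_KO and 29.0 ± 10.13 CPM in WT, a log2 fold change of 0.46 ± 0.31 (interval -0.26 to 1.17). Psmb9 averaged 20.2 ± 4.39 CPM in Degs2_KO and 15.1 ± 4.74 CPM in WT, a log2 fold change of 0.42 ± 0.24 (interval -0.13 to 0.97). Psmb9 overlaps the start of Tap1 on the opposite strand, so reads of the shared stretch may count for either gene.

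Nlrc5, the transactivator, measured 21.0, 17.3, 10.3 and 7.73 CPM in Degs2_KO libraries and 11.8, 8.74, 3.03 and 18.4 CPM in WT libraries. It had the second widest range of the 10 genes, 6.92-fold, again with WT replicate 3 lowest. The means were 14.1 ± 6.13 CPM in Degs2_KO and 10.49 ± 6.41 CPM in WT, and the log2 fold change was 0.43 ± 0.50 (interval -0.71 to 1.56). Without WT replicate 3 it was 0.12.

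All 10 log2 fold changes were above 0, where 47.4% of the genes tested were, with a median of 0.21 for the 10 and -0.0069 for all genes. Over the whole table, edgeR's quasi-likelihood test at a Benjamini-Hochberg adjusted p of 0.05 called 0.0% of the genes tested, and 1.13% had an unadjusted p under 0.05. limma-trend also called 0.0%, with 1.15% under an unadjusted 0.05. DESeq2 called 0.0124%, the 2 genes Degs2 and Dlk1, with 1.33% under an unadjusted 0.05. The groups did not overlap for 0 of the 10, against 1.04% of all genes. Since the choice of the 10 used this contrast, the shared sign and the overlap are described and nothing is read from them. Without WT replicate 3, 6 of the 10 were above 0 and 4 below, with a median of 0.08. The median was 0.34 without WT replicate 4 and 0.36 without WT replicate 1 or without Degs2_KO replicate 4. Leaving out WT replicate 2 gave 8 above and 2 below, and leaving out both Hoxd13-low libraries gave 9 above and 1 below with a median of 0.22.

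**Figure D2:**
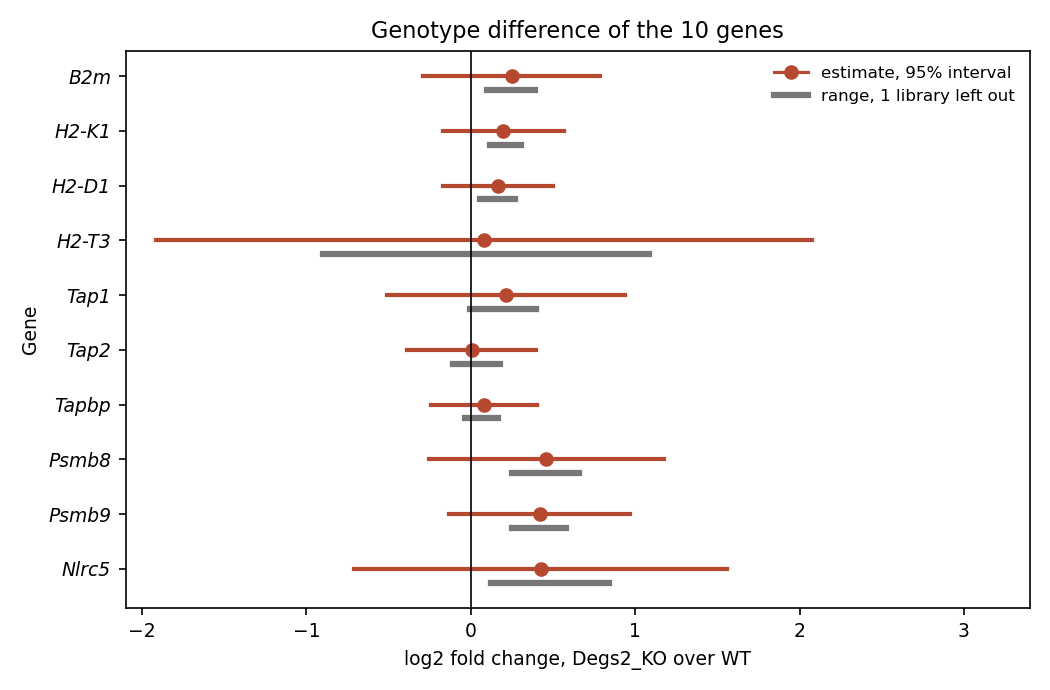
Log2 fold change of Degs2_KO over WT for each of the 10 genes (red point), with its 95% interval from the edgeR fit (red line) and, in grey, the range of the estimate when 1 library at a time is left out. Every red interval includes 0, and the grey range of H2-T3 runs from -0.90 to 1.09.

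The 9 genes other than H2-T3 shared much of their order over the libraries. On the scale of log2 CPM centred on each gene's mean over the 8 libraries, the median of the 9 was 0.47, 0.10, 0.19 and -0.26 in Degs2_KO replicates 1 to 4, against 0.13, -0.25, -0.67 and 0.23 in WT replicates 1 to 4. WT replicate 3 was the lowest library for all 9. The highest was Degs2_KO replicate 1 for 6 of the 10, Degs2_KO replicate 3 for H2-K1 and H2-T3, and WT replicate 4 for Tap2 and Tapbp. H2-T3 on the same scale stood at 0.20, -0.50, 1.94 and -0.96 in Degs2_KO and 1.87, -1.94, -1.22 and 0.61 in WT. The Hoxd13-low libraries were thus above the mean for the other genes too, for 8 of the 9 in each, but with medians of 0.19 in Degs2_KO replicate 3 and 0.13 in WT replicate 1, below the H2-T3 values there.

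**Figure D3:**
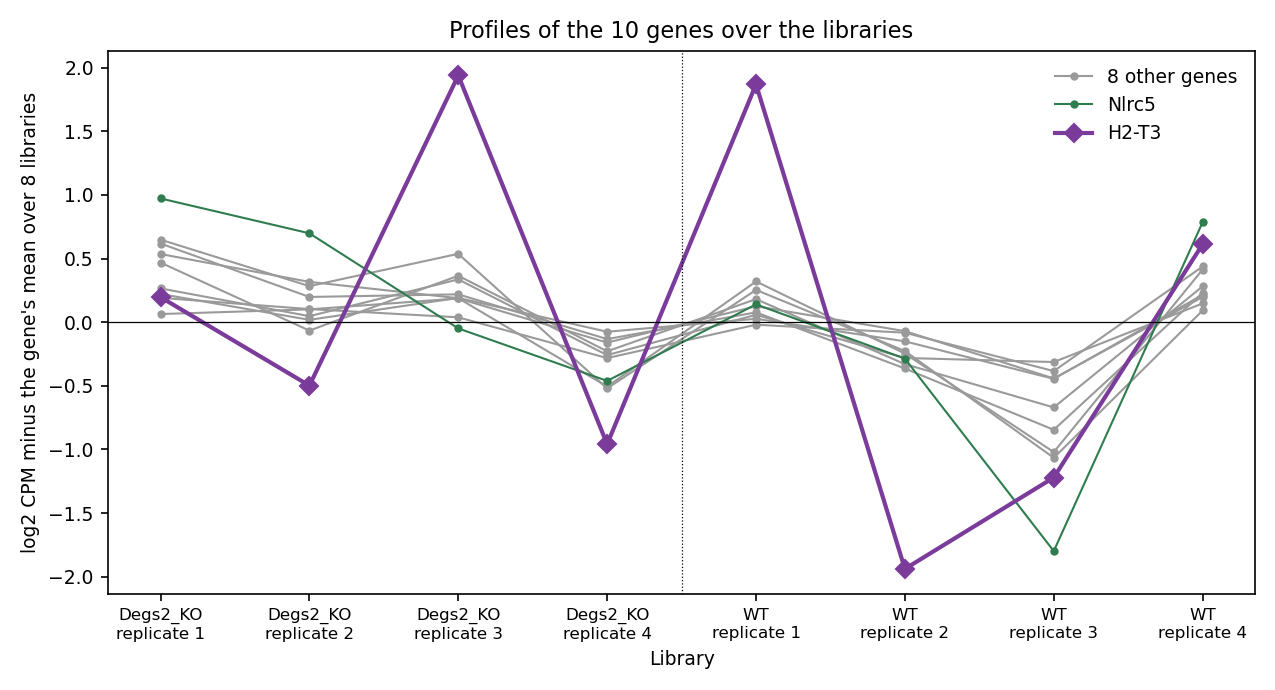
Log2 CPM of each gene minus its own mean over the 8 libraries, Degs2_KO libraries left of the dotted line and WT libraries right of it; H2-T3 in purple, Nlrc5 in green and the other 8 genes in grey. H2-T3 peaks at 1.94 in Degs2_KO replicate 3 and 1.87 in WT replicate 1, while the other 9 genes share a low point in WT replicate 3.

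The amount of variation differed between genes of different roles. The SD of log2 CPM over the 8 libraries was 1.42 for H2-T3, larger than that of 99.2% of the genes tested, and 0.895 for Nlrc5, larger than 96.1%. The immunoproteasome genes and Tap1 came next, with 0.576 for Psmb8, 0.542 for Tap1 and 0.446 for Psmb9. B2m had an SD of 0.393, and H2-K1 and H2-D1 had 0.255 and 0.227. Tap2 had 0.260. Tapbp varied least, at 0.217, with 48.9% of the genes tested below it. Over the 6 libraries with more Hoxd13, Nlrc5 had the largest SD of the 10, 1.06, larger than that of 98.9% of the genes tested, and H2-T3 came second with 0.940, larger than 98.4%.

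Levels were also taken per kilobase of exon, a scale on which genes can be compared. The order of the means was B2m, H2-K1, H2-D1, Tapbp, Psmb8, Tap1, Psmb9, H2-T3, Tap2 and Nlrc5 in both groups. The place of H2-T3 above Tap2 rested on the Hoxd13-low libraries. In each of the other 6 libraries H2-T3 lay below Tap2 per kb. There H2-T3 averaged 13.8 ± 5.67 CPM in Degs2_KO and 12.9 ± 12.1 CPM in WT (n = 3 each). B2m reached 635 ± 145 CPM per kb in Degs2_KO and 535 ± 157 in WT, and H2-K1 486.5 ± 86.0 in Degs2_KO and 424 ± 68.7 in WT. H2-D1 reached 366 ± 35.5 CPM per kb in Degs2_KO and 327 ± 61.9 in WT, and Tapbp 74.9 ± 7.43 in Degs2_KO and 70.8 ± 13.2 in WT. Psmb8 followed at 24.5 ± 7.68 CPM per kb in Degs2_KO and 17.8 ± 6.22 in WT. From Tap1, at 16.5 ± 4.58 CPM per kb in Degs2_KO and 14.3 ± 5.66 in WT, down to Tap2, at 11.1 ± 1.504 in Degs2_KO and 11.1 ± 2.70 in WT, neighbours in the order differed by no more than the larger of their SDs. Nlrc5 was lowest, at 1.74 ± 0.755 CPM per kb in Degs2_KO and 1.29 ± 0.789 in WT. The ratio of B2m to the summed classical chains was 0.739 ± 0.0756 in Degs2_KO and 0.701 ± 0.0963 in WT.

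Among 17 class I heavy chains with counts, H2-K1 made up 41.9 ± 0.830% of the summed level per kb in Degs2_KO and 41.3 ± 2.36% in WT. H2-D1 made up 31.9 ± 2.89% in Degs2_KO and 31.8 ± 2.06% in WT. H2-T23, which encodes Qa-1, a ligand of NKG2 receptors, made up 11.2 ± 0.514% in Degs2_KO and 11.9 ± 0.538% in WT. For H2-K1 and H2-D1 the group means differed by less than the SD of either group, and for H2-T23 by more. These shares carry no test. H2-T3 made up 0.683, 0.492, 2.12 and 0.424% in Degs2_KO libraries and 2.32, 0.217, 0.400 and 0.939% in WT libraries. Over the 6 libraries with more Hoxd13, H2-T3 made up 0.533 ± 0.134% in Degs2_KO and 0.518 ± 0.375% in WT, and H2-K1 42.1 ± 0.910% in Degs2_KO and 42.0 ± 2.35% in WT (n = 3 each). H2-Q2, a chain of the Q region, is named here after its values were seen. It made up 7.66% in Degs2_KO replicate 3 and 8.44% in WT replicate 1, against 4.12 to 5.33% in the other 6. H2-Q7, H2-Q10 and H2-Bl, picked out the same way, also had their largest shares in Degs2_KO replicate 3 and WT replicate 1. The classical chains share sequence with relatives: of all 50-base stretches of their transcripts, 9.63% for H2-K1 and 12.8% for H2-D1 also occur in another gene, against 0.894% for H2-T3. How such reads were split between genes in the authors' counting is not stated.

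Set against the classical genes library by library, H2-T3 lay below the mean of H2-K1, H2-D1 and B2m by a log2 CPM difference of -5.31, -5.69, -3.55 and -5.96 in Degs2_KO replicates 1 to 4 and of -3.41, -6.87, -5.93 and -4.79 in WT replicates 1 to 4. The Hoxd13-low libraries, at -3.55 and -3.41, were nearest to the classical level. The mean was -5.13 ± 1.09 in Degs2_KO and -5.25 ± 1.495 in WT, a difference of 0.13 between the groups. Leaving out 1 library moved that difference between -0.42, without WT replicate 2, and 0.74, without WT replicate 1, and without both Hoxd13-low libraries it was 0.21. Per kb, H2-T3 stood at 5.12% of H2-K1 in Degs2_KO replicate 3 and 5.92% in WT replicate 1. In the other libraries it was 1.61, 1.151 and 1.03% of H2-K1 in Degs2_KO and 0.529, 0.894 and 2.33% in WT.

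The genes nearest to H2-T3 in their centred log2 profile, ranked by root-mean-square difference over the 8 libraries among 10941 genes, were Cyp2c65, Prkg2, Ugt1a1, Padi2 and Isx. Cyp2c65, a cytochrome P450, differed by 0.151, and measured 80.7, 48.9, 282.5 and 42.2 CPM in Degs2_KO libraries and 267, 24.97, 36.7 and 115 CPM in WT libraries. Prkg2, a cGMP-dependent kinase, differed by 0.260, Ugt1a1, a glucuronosyltransferase, by 0.265, Padi2, a peptidylarginine deiminase, by 0.306, and Isx, an intestinal homeobox factor, by 0.308. All 5 had their highest levels in Degs2_KO replicate 3 and WT replicate 1. H2-T3 peaks in these libraries and the 5 were picked for likeness to it, so this follows from the choice. The other members' differences from H2-T3 ran from 1.05 for Psmb8 to 1.24 for Nlrc5, and 428 ranked genes were nearer than Psmb8. Over the 6 libraries with more Hoxd13, Cyp2c65 was again nearest, at 0.165, and the ranks of Prkg2, Ugt1a1, Padi2 and Isx were 6, 8, 10 and 11. The members were closer to H2-T3 there, from 0.580 for B2m to 0.735 for Tapbp, at ranks of 140 to 686.

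**Figure D4:**
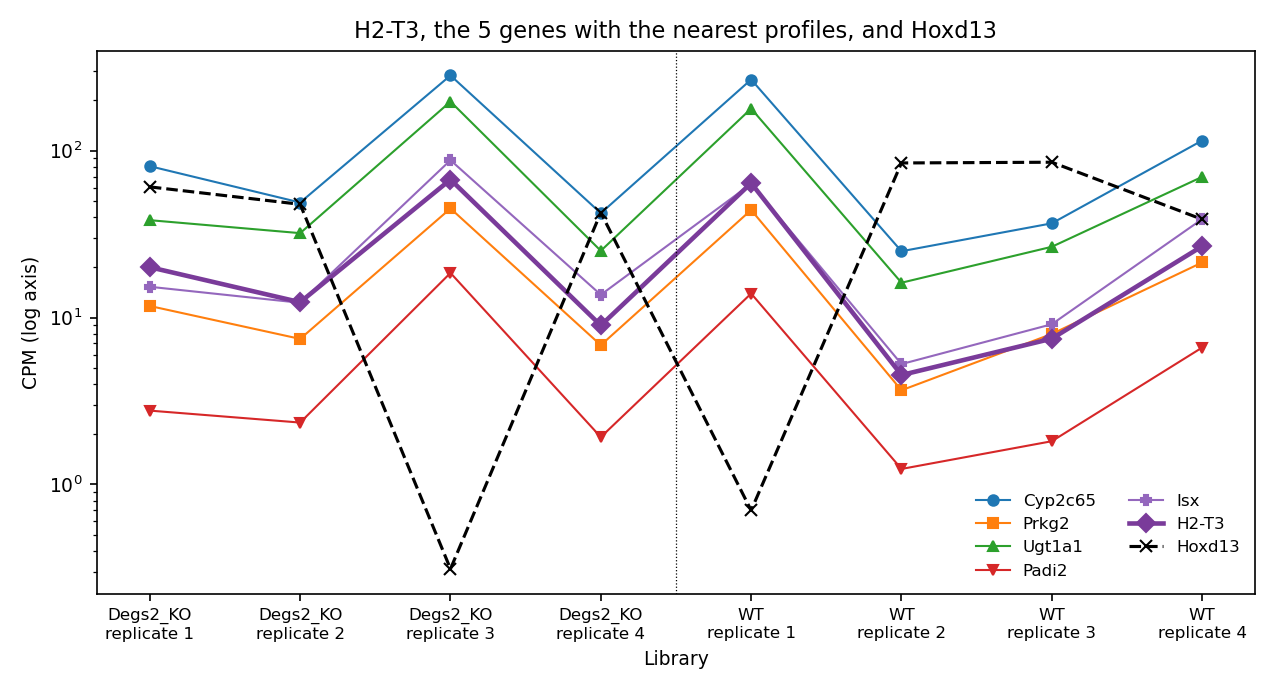
CPM on a log axis of H2-T3 (purple), of the 5 genes with the most similar profiles, and of Hoxd13 (dashed), in each library, Degs2_KO left of the dotted line and WT right of it. All 6 solid lines peak in Degs2_KO replicate 3 and WT replicate 1, where Hoxd13 stands at 0.312 and 0.699 CPM. The 5 genes were picked for likeness to H2-T3, so the shared peaks follow from the choice.

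The neighbours of Nlrc5 and B2m were other genes. Nlrc5 was nearest to Ifi44 (0.217), Isg15 (0.296), Gbp3 (0.311), Igtp (0.357) and Usp18 (0.357), all known as interferon-inducible genes. Ifi44 measured 28.0, 20.2, 15.7 and 12.1 CPM in Degs2_KO libraries and 19.3, 12.6, 5.44 and 35.8 CPM in WT libraries. Of the members Tap1 was nearest to Nlrc5, at 0.383, with 10 ranked genes nearer. B2m was nearest to H2-T23 (0.116), Oas1a (0.122), Ube2l6 (0.126), Tnfsf10 (0.134) and Cnn2 (0.138). Psmb9 at 0.145, H2-K1 at 0.165 and H2-D1 at 0.171 followed among the members, so the light chain, the classical chains and an immunoproteasome subunit kept close company over the 8 libraries. These distances rest on 8 libraries that differ in depth and in their cell markers, and carry no test.

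Ratios within a library remove what all genes of that library share. Psmb8 over its constitutive counterpart Psmb5, per kb, was 0.619, 0.465, 0.549 and 0.282 in Degs2_KO libraries and 0.452, 0.345, 0.223 and 0.485 in WT libraries. Psmb9 over Psmb6 was 0.236, 0.171, 0.154 and 0.145 in Degs2_KO libraries and 0.147, 0.124, 0.0909 and 0.219 in WT libraries. The groups overlapped for both ratios, and the lowest library was again WT replicate 3. The means were 0.479 ± 0.146 in Degs2_KO and 0.376 ± 0.118 in WT for Psmb8 over Psmb5, and 0.176 ± 0.0411 in Degs2_KO and 0.145 ± 0.0541 in WT for Psmb9 over Psmb6. Psmb10, the remaining immunoproteasome subunit, was more even against Psmb7, at 1.06 ± 0.135 in Degs2_KO and 1.02 ± 0.140 in WT, a 1.37-fold range over all libraries against 2.78-fold for Psmb8 over Psmb5. Tap1 over Tap2 was 1.69, 1.55, 1.48 and 1.14 in Degs2_KO libraries and 1.69, 1.19, 0.857 and 1.31 in WT libraries.

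**Figure D5:**
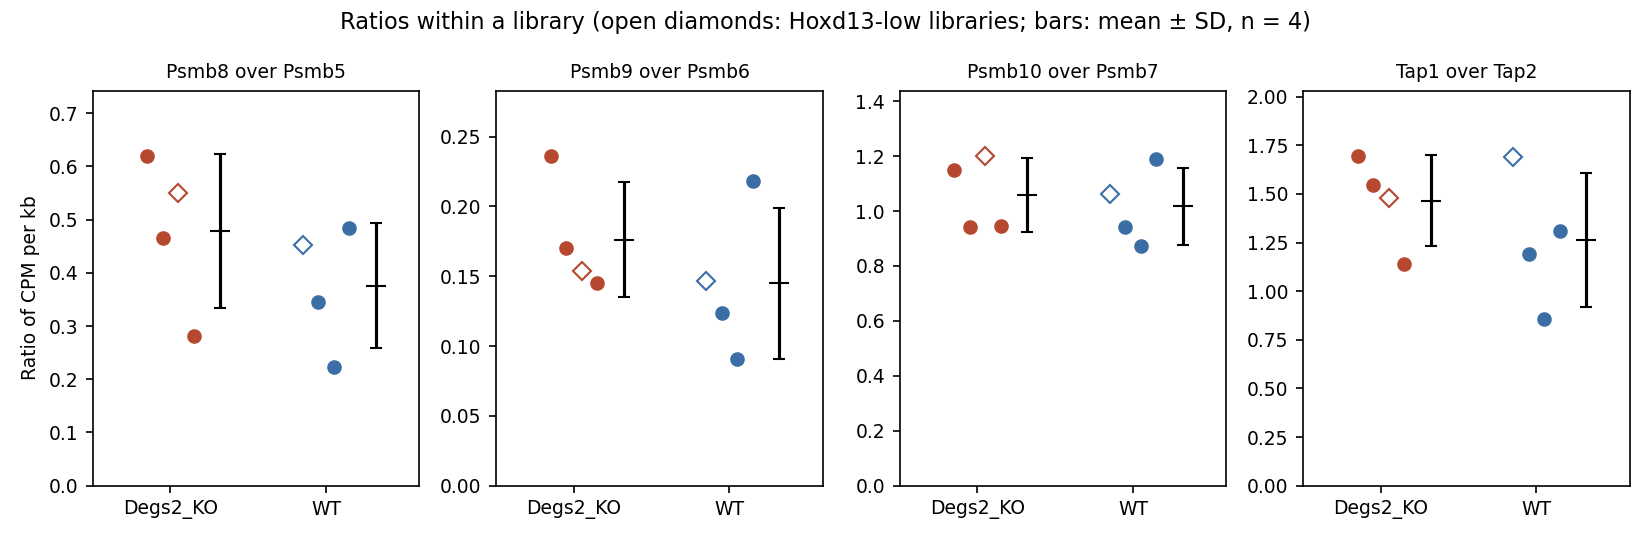
Ratios of CPM per kb within each library, Degs2_KO left and WT right in each panel; points are libraries, open diamonds the Hoxd13-low libraries, bars the mean ± SD of 4. The groups overlap in all panels, and Psmb10 over Psmb7 spans 1.37-fold where Psmb8 over Psmb5 spans 2.78-fold.

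Lists of 87 genes held other genes of the pathway, its regulators and interferon gamma targets. Of these, 78 passed the filter. None of the 78 passed edgeR's test, and none had an unadjusted p under 0.05, against 0.0% and 1.13% of all genes. The smallest unadjusted p was 0.0664, and its Benjamini-Hochberg adjusted p from edgeR's quasi-likelihood test was 0.9996. Log2 fold changes were above 0 for 58 and below 0 for 20, or 74.4% above 0, against 47.4% of all genes tested. Their median was 0.11. The groups did not overlap for 3 of the 78, Canx, Bcap31 and Nfyb, against 1.04% of all genes.

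Of 17 other class I chains, 11 were higher and 6 lower in Degs2_KO, none past the test, and their median log2 fold change was 0.08. H2-M3 averaged 4.64 ± 0.266 CPM in Degs2_KO and 4.05 ± 0.313 CPM in WT, a log2 fold change of 0.19 ± 0.12. H2-Q7, which encodes a Qa-2 chain, averaged 22.6 ± 7.83 CPM in Degs2_KO and 15.5 ± 8.67 CPM in WT, a log2 fold change of 0.55 ± 0.47. H2-Q6 and H2-T22 had log2 fold changes of 0.61 ± 0.56 and 0.15 ± 0.13. H2-T23, the most abundant of these, averaged 192 ± 38.0 CPM in Degs2_KO and 181 ± 43.7 CPM in WT. Without WT replicate 3 its log2 fold change was -0.036, against 0.08 with all libraries, and the list split into 7 higher and 10 lower. Without Degs2_KO replicate 3 the list split into 8 higher and 9 lower, and its median ran from -0.031 without WT replicate 3 to 0.20 without Degs2_KO replicate 4.

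Of 9 peptide-loading factors outside the 10, 8 were higher and 1 lower, with a median of 0.11 and none past the test. Canx, the calnexin chaperone of new heavy chains, averaged 594 ± 37.8 CPM in Degs2_KO and 529 ± 22.97 CPM in WT, with a log2 fold change of 0.17 ± 0.08. Bcap31, a sorting factor of the endoplasmic reticulum, averaged 122 ± 3.44 CPM in Degs2_KO and 115 ± 2.21 CPM in WT. In both genes every Degs2_KO library lay above every WT library, although the differences were small. Calr, the calreticulin chaperone, and Pdia3, its oxidoreductase partner, each had a log2 fold change of 0.19, with SEs of 0.15 and 0.11.

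All 4 further immunoproteasome and activator genes, and all 14 constitutive proteasome genes, had log2 fold changes above 0, with medians of 0.18 and 0.11 and none past the test. Psmb10 averaged 83.0 ± 15.6 CPM in Degs2_KO and 73.1 ± 13.6 CPM in WT. The activator genes Psme1, Psme2 and Psme3 had log2 fold changes of 0.19 ± 0.17, 0.17 ± 0.16 and 0.05 ± 0.08. Among the constitutive subunits Psma6 had 0.16 ± 0.11, Psma5 0.14 ± 0.09, Psma1 0.11 ± 0.07, Psma2 0.11 ± 0.07 and Psmb1 0.09 ± 0.08. The 14 constitutive genes were all above 0 when any 1 library was left out, with medians from 0.07 to 0.19. With all libraries, 47.4% of all genes tested were above 0. Most of the 14 were highest in Degs2_KO replicate 3 and lowest in WT replicate 3 or 4. Their signs are therefore not separate observations.

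The 20 regulators of class I genes split into 9 higher and 11 lower, with a median of -0.0047 and none past the test. Nfyb, a subunit of the factor that binds CCAAT boxes, averaged 31.4 ± 0.486 CPM in Degs2_KO and 28.3 ± 1.74 CPM in WT, with a log2 fold change of 0.15 ± 0.07. Ciita, the class II transactivator, averaged 4.45 ± 2.82 CPM in Degs2_KO and 1.903 ± 1.07 CPM in WT, a log2 fold change of 1.23 ± 0.59. Rfx5, which encodes a subunit of the factor binding the X box of these promoters, averaged 11.5 ± 0.702 CPM in Degs2_KO and 13.2 ± 1.23 CPM in WT. Its log2 fold change was -0.20 ± 0.10, and those of Irf2 and of the receptor subunit Ifngr1 were -0.21 ± 0.13 and -0.14 ± 0.14.

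Of 14 interferon gamma target genes tested, 12 were higher and 2 lower in Degs2_KO, none past the test, and their median log2 fold change was 0.26. Cxcl9, a T cell chemokine, had a log2 fold change of 1.02 ± 0.51. Iigp1, an immunity-related GTPase, averaged 28.1 ± 19.3 CPM in Degs2_KO and 12.4 ± 7.57 CPM in WT, a log2 fold change of 1.18 ± 0.70. Gbp2 had 0.48 ± 0.36, Irgm1 0.26 ± 0.28, and Cd274, which encodes PD-L1, -0.52 ± 0.29. The 15 listed targets summed to 401, 349, 301 and 167 CPM in Degs2_KO libraries and 314, 206, 127 and 332 CPM in WT libraries. Their lowest library was WT replicate 3 and their highest Degs2_KO replicate 1, the same libraries that were lowest and most often highest for the class I genes. Without WT replicate 3 the median of the list was 0.032, with 9 higher and 5 lower, and without Degs2_KO replicate 1 it was 0.058, with 11 higher and 3 lower. Whether interferon signalling plays a part in the spread of the class I genes was not tested.

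Markers of other cells were measured beside these values. The 15 T cell and intraepithelial lymphocyte markers, all detected in every library, summed to 17.7, 12.8, 29.6 and 8.94 CPM in Degs2_KO replicates 1 to 4 and 36.8, 11.3, 4.94 and 19.6 CPM in WT replicates 1 to 4. Cd8a, which encodes the receptor chain that binds the H2-T3 product, measured 1.88, 1.49, 4.004 and 0.854 CPM in Degs2_KO and 6.38, 1.5, 0.334 and 2.48 CPM in WT. Both were highest within each group in the library where H2-T3 was highest, and their part in that result was not tested. The 11 myeloid markers summed to between 14.3 and 19.0 CPM in Degs2_KO and between 11.3 and 25.8 CPM in WT. The 8 B and plasma cell markers, 4 of them at 0 in some library, summed to at most 2.66 CPM in Degs2_KO and 2.67 CPM in WT. The 12 stromal and endothelial markers, 5 of them at 0 in some library, summed to between 3.18 and 19.1 CPM in Degs2_KO and between 7.49 and 35.9 CPM in WT. A list of 16 genes of the small intestine, 5 of them at 0 in some library, summed to 397, 248, 700.5 and 228 CPM in Degs2_KO. In WT the sums were 778, 188, 354 and 411 CPM, and both groups were highest in the Hoxd13-low library, as H2-T3 was. A few genes carried these sums. Fabp2 measured 435.5 CPM in Degs2_KO replicate 3 and 354 CPM in WT replicate 1, and Slc10a2 70.3 and 100.9 CPM. Apob was instead highest in Degs2_KO replicate 1, at 229 CPM, and WT replicate 3, at 244 CPM.

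The sample descriptions carry ID numbers, and 3 pairs of them adjoin between genotypes, taken as 3 or less apart. The pairs are replicate 1 of each group, Degs2_KO replicate 3 with WT replicate 2, and Degs2_KO replicate 4 with WT replicate 3. What the ID numbers mark is not stated. Over the genes tested, deviations from the group mean correlated at -0.425, -0.53 and 0.205 within these pairs. Of the 10 genes, 8 were higher in Degs2_KO in all 3 of these pairs, against 5.49% of the genes tested, and the remaining libraries, Degs2_KO replicate 2 minus WT replicate 4, went the other way for 9 of the 10. H2-T3 differed within the pairs by a log2 value of -1.67, 3.88 and 0.26, and Tapbp by -0.061, 0.26 and 0.28. Since the choice of genes used these libraries, the pairs are a description as well.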

How the data were processed

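RNA was sequenced from 8 libraries of distal colon epithelium, 4 Degs2_KO and 4 WT, grouped by their titles. TopHat2 2.0.10, cutadapt 1.9, Cuffdiff and Cufflinks 2.1.1, with build mm10, are named per the submitters' processing notes, in no stated order. The authors deposited estimated counts of fragments per gene, scaled by 1 factor per library, with totals of 41622927 to 44606092. Undoing the scaling gave 32.8 to 49.8 M fragments, with 96.9% to 97.2% of values up to 100 whole within 0.02. At this depth 3 fragments are 2.61 to 3.93 scaled counts, which covers counting error only. In 47 genes an estimate had failed and was listed at 0, and these were left out.

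The estimated counts were rounded and compared with edgeR 4.0.16 in R 4.3.3 (filterByExpr with minimum count 10 and total 15, TMM, glmQLFit and glmQLFTest, Benjamini-Hochberg adjustment, threshold 0.05), and the script was tested on simulated data. DESeq2 1.42.0 and limma 3.58.1 were alternatives, beside other normalizations, filters, blocks and left-out libraries. The values of H2-T3 and of the heavy chain shares over 6 libraries were added after seeing the data. Log2 CPM used a prior count of 2. Genes were placed and their exon lengths summed with GENCODE M21, and promoters came from RefSeq. The members and lists were chosen with earlier results of these data known. From each pathway list the 4 genes of smallest p and the most abundant are named. For H2-T3, Nlrc5 and B2m the 5 nearest profiles with a mean log2 CPM of at least 1 are named. From each marker list the 3 most abundant genes may be named. Symbols without a match were H2-Q8, H2-Q9 and H2-T9.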

Additional observations from a re-analysis of the deposited data

Results flagged for a closer look

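Of 48 sets of 4 libraries screened for 1 library far from the others, 1 was picked out, where chance picks about 1 in 20. It was the summed log2 level of the 6 distal Hox genes in Degs2_KO replicate 3, whose gap to the nearest of the other Degs2_KO libraries was 0.907 of the group's range, above Dixon's critical value for 4 values. Hoxd13 is 1 of the 6 genes, and this library had already been singled out for its low Hoxd13, so the value restates that choice and is no independent evidence. These genes summed to 140 CPM there, against 368 to 406 CPM in the other Degs2_KO libraries. The same library had the highest H2-T3 of all, at 67.2 CPM. In WT, replicate 1 had the lowest sum of the 6 genes, 143 CPM, and the highest H2-T3 of its group, 64.0 CPM.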

How the results depend on the processing

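Of the 10 genes, none moved by more than 1 SD of its libraries within groups under any of 18 alternatives. Leaving out 1 of 4 libraries can hardly move a mean that far, so for those alternatives this bound says little about stability. H2-T3 stayed inside it while running from -0.90 to 1.09 with 1 library left out. The log2 fold changes of B2m, H2-K1, H2-D1, Psmb8, Psmb9 and Nlrc5 were above 0 under all 18, those of Tap1 and Tapbp under 17, H2-T3 under 15 and Tap2 under 12. No gene of the pathway lists passed the test under any of them. Over all genes, DESeq2 called 2 genes, Degs2 among them (-1.06), where edgeR called 0. The number of genes at an unadjusted p under 0.05, 183 in edgeR, was 401 with no filter, 650 without both Hoxd13-low libraries and between 133 and 782 with 1 library left out. With a replicate block on the title numbers it was 99, and with a block on adjoining ID numbers 79. Deviations from the group mean correlated at -0.425, 0.444, -0.56 and -0.102 between same-numbered libraries. Differences such as that of the Hoxd13-low libraries weigh on these correlations, so they cannot decide whether the numbers mark a pairing. The labels do not say what the numbers mark. Under the replicate block Nlrc5 was 0.61 and B2m 0.27, against 0.43 and 0.25. H2-T23 changed sign without WT replicate 3 (-0.036; between -0.036 and 0.21 with 1 library left out) and Psme3 with the block on ID numbers (-0.021). The cause was not tested. Depth limits little here, since the least abundant of the 10 in any library, Nlrc5 in WT replicate 3, stood at 3.03 CPM; the spread between 4 libraries sets the intervals.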
